A study of Mus musculus with 6 samples.

Results

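The 30 genes described here break down the branched-chain amino acids leucine, isoleucine and valine, or handle ketone bodies. They were taken as a fixed list of gene symbols, with no threshold on measured values. All 30 symbols matched 1 of the 37620 gene identifiers in the counts, and 29 passed the filter on low counts; Bdh1 did not. The counts come from RNA sequencing of mature adipocytes of brown fat, a tissue that makes heat, taken from the floating layer after digestion of the minced tissue with collagenase. Wild-type mice were compared with mice labelled as knockout of PHOSPHO1, which removes phosphate from phosphocholine and phosphoethanolamine. Both groups have a C57BL/6 background and an age of 6 weeks, and each has 3 libraries, every one a pool of 3 mice. The sources used here give neither the design of the knockout allele, nor the cells that lack the gene, nor the sex of the mice. The p-values measure the spread between these pools. Values for libraries 1, 2 and 3 of a group are always given in that order.

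Branched-chain amino acids enter cells through heterodimeric carriers, lose their amino group to a transaminase in the cytosol or the mitochondria, and are then committed to oxidation by the branched-chain ketoacid dehydrogenase complex (BCKDH). That complex is switched off when a kinase phosphorylates its E1 alpha subunit and on again when a phosphatase removes the phosphate. Separate branches then lead from leucine to acetyl-CoA and acetoacetate, and from valine and part of isoleucine to propionyl-CoA, which biotin-dependent and cobalamin-dependent enzymes turn into succinyl-CoA. Brown fat is known as a tissue that oxidizes branched-chain amino acids when it makes heat, and it can also burn ketone bodies.

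Library totals ranged from 10576800 to 14239307 counts, and genes of the mitochondrial genome took 39.1% to 56.5% of them. The 8 listed markers of brown fat cells differed widely in level. Ucp1, the uncoupling protein, was between 2285 and 4873 CPM (counts relative to the TMM-scaled library total) and Adipoq between 2012 and 3039 CPM. Ppargc1a was between 15.04 and 45.17 CPM, and Elovl3 between 1.466 and 5.923 CPM. In the libraries labelled knockout, Cox7a1 was called higher (log2 fold change 1.02, edgeR adjusted p = 0.0455). Ppargc1a was called lower there (-1.07, edgeR adjusted p = 0.0342). Phospho1 itself held 13, 5 and 5 counts in wild type and 18, 15 and 17 in the libraries labelled knockout (log2 fold change 1.53, edgeR adjusted p = 0.0563), so its counts did not fall with the label. Directions below are therefore those of the libraries labelled knockout. Wild-type library 3 stood apart in skeletal muscle markers: the 10 listed genes summed to 972 CPM there and to between 39.0 and 106 CPM in the other 5 libraries, and none of them was at 0 in all libraries. The macrophage markers (8 genes) summed to 115 to 213 CPM in wild type, against 234 to 508 CPM in the knockout-labelled libraries, and the erythroid markers (5 genes) to 366 to 1378 and 1210 to 3505 CPM. Sums of the 8 endothelial markers (667 to 782 against 875 to 955 CPM), the 8 stromal markers (606 to 773 against 701 to 853 CPM) and the 6 mural markers (835 to 1285 against 442 to 889 CPM) are given as values. Of the 5 liver markers 1 passed the filter on low counts and Ttr was at 0 in all libraries, and the sums were 505 to 1453 and 389 to 1071 CPM. Markers within a list did not all move together. In edgeR, 1 macrophage marker was called higher and 1 lower, 1 endothelial marker higher and 2 lower, and 2 mural markers higher and 1 lower. For the erythroid list it was 2 higher and 0 lower, and for the stromal list 0 and 0. Among all tested genes, 1.63% were called higher and 7.52% lower. The part of other cells in the results was not tested. In bulk RNA, fewer cells of a type and less RNA per cell cannot be told apart.

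Libraries also differed in how level depended on transcript length. The slope of each library's log2 level, relative to the mean of the 6, on log2 transcript length was between -0.0255 and 0.306 in wild type and between -0.249 and -0.0932 in the knockout-labelled libraries, so long transcripts were relatively lower in the latter. Wild-type library 2 (-0.0255) and knockout-labelled library 2 (-0.0932) had the most similar slopes across the groups. A second fit took a smooth trend on longest-transcript length and GC content out of each library, and its values are given as values with offsets. With the offsets, Cox7a1 was at 0.21 and Ppargc1a at -0.26, and neither passed (edgeR adjusted p = 0.5 and 0.489). With offsets on the median transcript length they were at 0.52 and -0.78, and neither passed (edgeR adjusted p = 0.173 and 0.0726).

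Of the 29 tested genes, 3 fell in the knockout-labelled libraries and none rose (edgeR quasi-likelihood test, adjusted p under 0.05). They were Dbt, the E2 core of BCKDH, Ppm1k, the phosphatase that switches the complex on, and Acadsb, the short/branched-chain acyl-CoA dehydrogenase of isoleucine breakdown. Among all 12068 tested genes, 7.52% were called lower and 1.63% higher (9.16% in either direction), so 3 and 0 of 29 lie near the background. Scaling by total counts alone put the median over all tested genes at -0.23 and split the calls into 29 higher and 1389 lower, against 197 and 908 with TMM; 3 members were lower under both. At an unadjusted p under 0.05, 4 members were higher and 6 lower, against 12.3% and 18.6% of all tested genes. DESeq2 called 1 member higher and 3 lower, against 4.2% and 11.5% of the genes it tested, and limma-voom 0 and 3, against 1.24% and 6.15%. The median log2 fold change of the 29 genes was 0.08, against 0.03 over all tested genes, and members ranged from -1.59 to 1.38. The 2 groups of libraries did not overlap for 10 members, 5 in each direction, against 15.8% higher and 19.6% lower (35.4% in all) of the tested genes. With the offsets the median was -0.12, against -0.05 over all tested genes, and 0 members passed, as against 0.00829% of all tested genes. At an unadjusted p under 0.05, 5 members were then higher and 4 lower, against 9.36% and 13.8% of all tested genes. When the offsets used the median transcript length of each gene instead, the same 3 genes passed as lower and none as higher, against 2.86% and 0.795% of all tested genes.

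**Figure D1:**
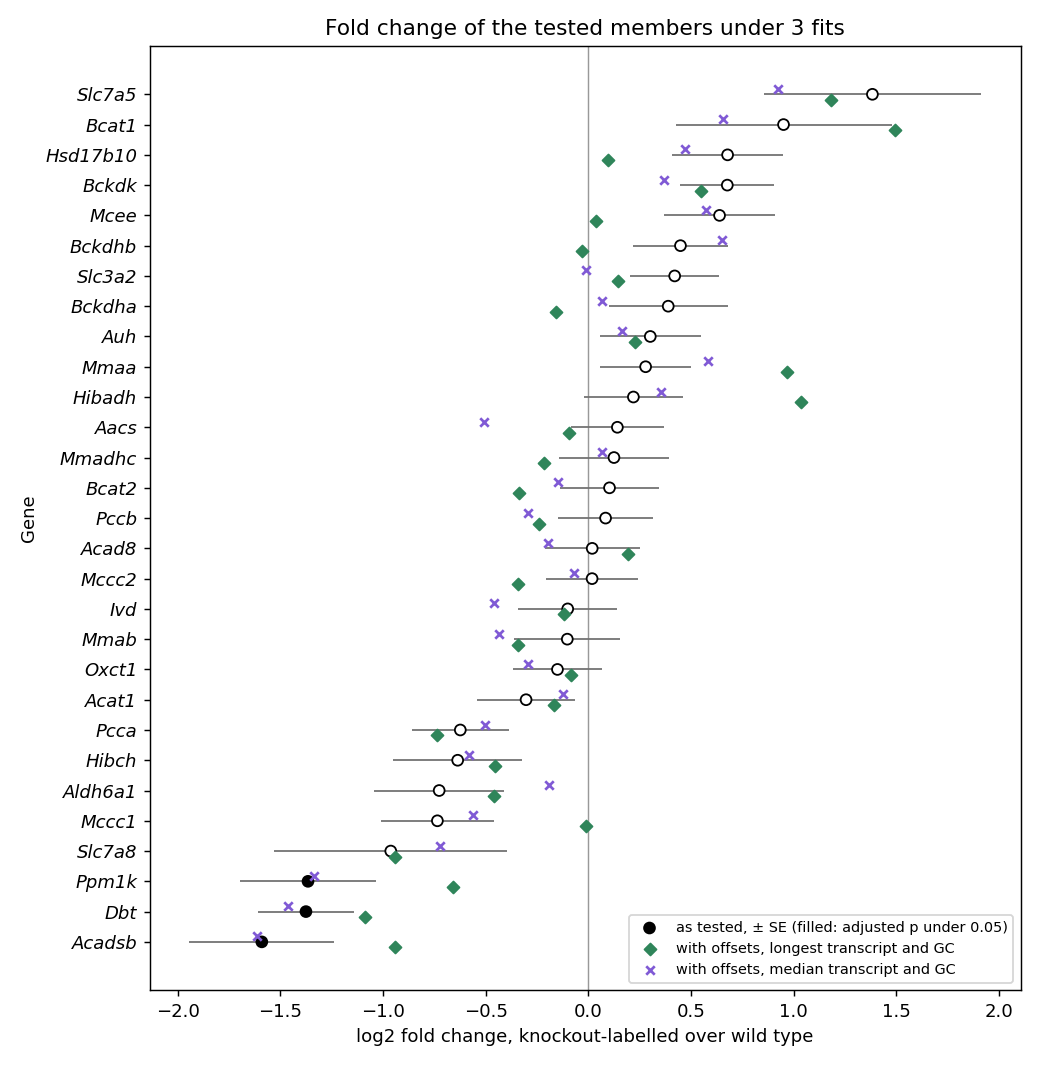
Log2 fold change of the 29 tested genes (horizontal axis, knockout-labelled over wild type), with circles for the values as tested and bars for 1 SE, diamonds for offsets on the longest transcript and GC content, and crosses for offsets on the median transcript and GC content. The filled circles of Acadsb, Dbt and Ppm1k at the bottom passed the threshold, and the diamonds of Bckdha and Bckdhb lie on the other side of 0 from their circles.

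Levels of the members spanned several orders of magnitude, and genes are compared here per length. In wild type, Aldh6a1 had the highest level, 264 ± 20.6 CPM per kilobase of its longest transcript (SD, n = 3), followed by Pccb at 200 ± 29.9, Hsd17b10 at 195 ± 63.9 and Acat1 at 184 ± 12.6. Each neighbouring pair among the last 3 differed by less than the larger SD of the pair. At the other end, Slc7a8, Bcat1, Slc7a5 and Bdh1 had 0.486, 0.293, 0.172 and 0.0487 CPM per kilobase. Apart from Bdh1, the mitochondrial enzymes were thus above the plasma membrane light chains Slc7a5 and Slc7a8 and above Bcat1, the cytosolic transaminase. With the median transcript length in place of the longest, Acat1 ranked first at 1252 CPM per kilobase and Aldh6a1 sixth, while the same 4 genes remained the lowest.

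**Figure D2:**
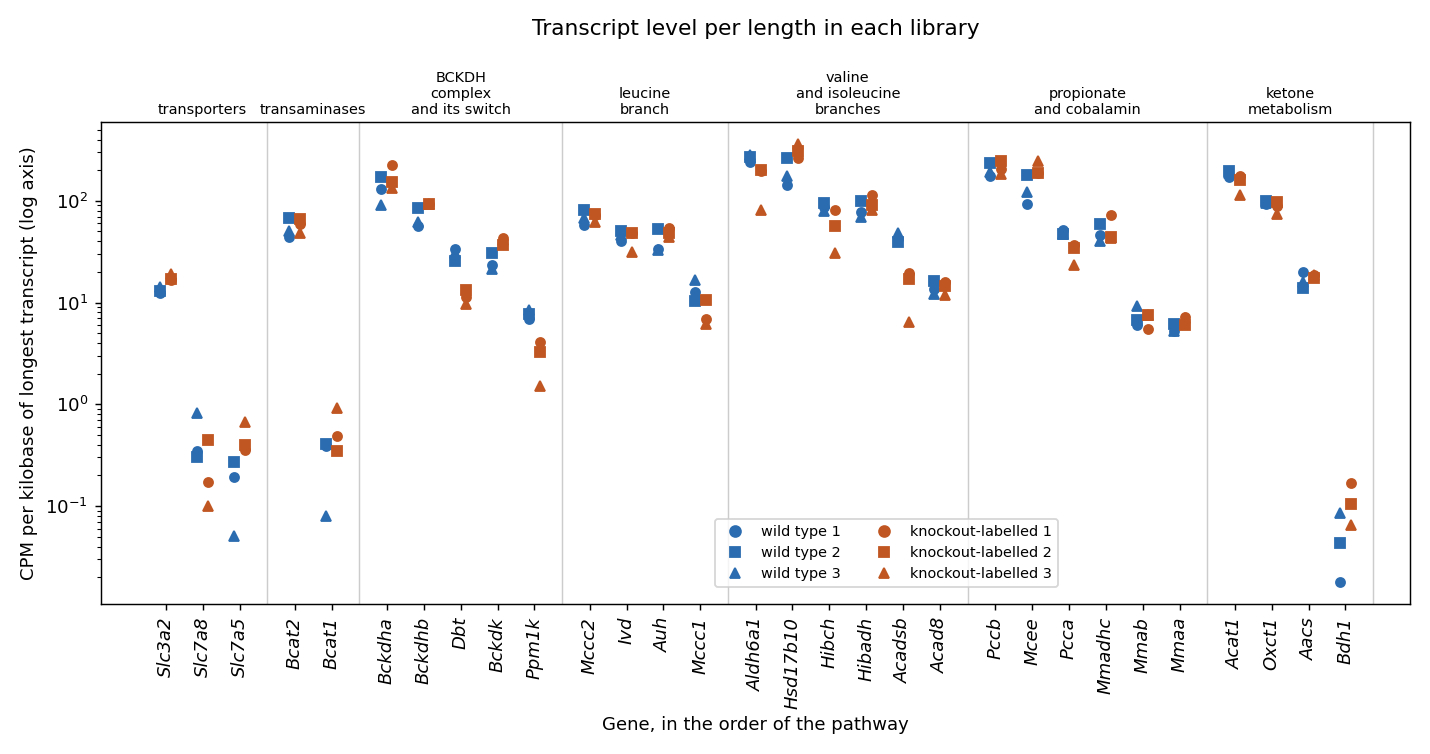
Level of each of the 30 genes in each library, in CPM per kilobase of the longest transcript on a log axis, grouped by step of the pathway, with blue symbols for wild type, orange for the knockout-labelled libraries and 1 symbol shape per replicate number. Slc7a5, Slc7a8, Bcat1 and Bdh1 lie below 1 in all libraries, and the orange symbols of Dbt, Ppm1k and Acadsb lie below the blue ones.

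Of the 3 carrier genes among the 30, Slc3a2, the shared heavy chain that brings the light chains to the membrane, had the highest level per length. It had 34.7, 36.2 and 40.2 CPM in wild type, against 47.3, 47.9 and 53.6 CPM in the knockout-labelled libraries. All 3 knockout-labelled libraries were higher, but the log2 fold change of 0.42 (SE 0.22) did not pass (edgeR adjusted p = 0.205), and with the offsets it was 0.15. Slc7a5, the light chain LAT1, held only 12, 14 and 2 counts in wild type and 14, 17 and 23 in the knockout-labelled libraries, or 0.677, 0.956 and 0.180 against 1.24, 1.39 and 2.35 CPM. Its groups did not overlap, and its log2 fold change was 1.38 (edgeR adjusted p = 0.108, SE 0.53). Slc7a8, the light chain LAT2, held 25, 18 and 37 counts against 8, 22 and 4, and its log2 fold change of -0.96 (SE 0.57) did not pass (edgeR adjusted p = 0.263). It was -1.79 without knockout-labelled library 2 and -0.43 without wild-type library 3. Macrophage marker sums, given above, were higher in the knockout-labelled libraries as well, though 1 of the 8 markers was called lower and 1 higher. The part of macrophages in the Slc7a5 values was not tested. Slc25a44, the mitochondrial branched-chain amino acid carrier known from brown fat, had 44.9, 39.0 and 61.3 CPM against 43.5, 51.9 and 53.8 CPM, with overlapping groups and a log2 fold change of 0.04 (edgeR adjusted p = 0.923, SE 0.24); it is not among the 30 and was chosen after its values were seen.

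The transaminases did not pass in either form. Bcat2, the mitochondrial enzyme, had 91.5, 142 and 105 CPM in wild type, against 124, 139 and 101 CPM in the knockout-labelled libraries, with overlapping groups and a log2 fold change of 0.10 (edgeR adjusted p = 0.791, SE 0.24). Bcat1 had 3.05, 3.21 and 0.628 CPM against 3.80, 2.71 and 7.15 CPM, a log2 fold change of 0.95 (edgeR adjusted p = 0.237, SE 0.53). Wild-type library 3 was the lowest and knockout-labelled library 3 the highest for Bcat1. Per kilobase of the longest transcript, Bcat2 exceeded Bcat1 by 112, 165 and 588 times in wild type. In the knockout-labelled libraries it did so by 121, 190 and 53.0 times, so the mitochondrial form was higher in all 6. These sizes depend on the length taken. With the median transcript length, the wild-type means of Bcat2 and Bcat1 were 70.1 and 3.05 CPM per kilobase. Wild-type library 3 held 7 counts of Bcat1. Bcat2 shares 15.9% of its exonic bases with an antisense transcript.

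At the BCKDH step, Dbt passed and the E1 subunits did not. Bckdha, the E1 alpha subunit that carries the regulatory phosphate, had 251, 322 and 171 CPM in wild type, against 430, 289 and 255 CPM in the knockout-labelled libraries. Bckdhb, the E1 beta subunit, had 84.0, 127 and 92.1 CPM against 139, 139 and 136 CPM. The groups overlapped for Bckdha and not for Bckdhb, and neither gene passed (log2 fold changes 0.39 and 0.45, edgeR adjusted p = 0.368 and 0.206); with the offsets they were at -0.16 and -0.03. With offsets on the median transcript, Bckdha was at 0.07 and Bckdhb at 0.65 (edgeR adjusted p = 0.903 and 0.0871). Bckdha shares 61.7% of its annotated exonic bases with B3gnt8 on the opposite strand, which held 36 counts over all libraries.

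Dbt (ENSMUSG00000000340, chromosome 3), the dihydrolipoyl transacylase that forms the core of the complex, fell. Its levels were 110, 83.5 and 101 CPM in wild type, against 37.2, 44.1 and 32.1 CPM in the knockout-labelled libraries. Every wild-type library was thus above every knockout-labelled one, with a log2 fold change of -1.38 (edgeR adjusted p = 0.016, SE 0.23). In the 2 libraries of most similar length slope, wild type 2 and knockout-labelled 2, Dbt was at 83.5 and 44.1 CPM. Any pair across groups that do not overlap differs in this direction, so this pair is no test of the length trend. With the offsets the log2 fold change of Dbt was -1.09 (edgeR adjusted p = 0.0573), and with those on the median transcript -1.46 (adjusted p = 0.030). Dld, the E3 subunit that BCKDH shares with pyruvate dehydrogenase, had 836, 724 and 806 CPM against 586, 457 and 322 CPM, groups that did not overlap, and did not pass (log2 fold change -0.79, edgeR adjusted p = 0.0707); it too was chosen after its values were seen.

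The switch of the complex showed its members on opposite sides of 0. Ppm1k (ENSMUSG00000037826, chromosome 6), the mitochondrial phosphatase that activates BCKDH, had 38.1, 42.9 and 47.1 CPM in wild type, against 23.0, 18.3 and 8.37 CPM in the knockout-labelled libraries. It fell, with a log2 fold change of -1.37 (edgeR adjusted p = 0.0313, SE 0.33), and knockout-labelled library 3 was the lowest. With the offsets the value was -0.66 (edgeR adjusted p = 0.174), and with those on the median transcript -1.34 (adjusted p = 0.0464). Bckdk (ENSMUSG00000030802, chromosome 7), the kinase that inactivates BCKDH, had 80.0, 106 and 72.5 CPM against 146, 126 and 142 CPM. Its groups did not overlap either, but the log2 fold change of 0.68 (SE 0.23) did not pass (edgeR adjusted p = 0.0784); it was 0.55 with the offsets. DESeq2 called Bckdk (log2 fold change 0.67, DESeq2 adjusted p = 0.0495).

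The ratio of the kinase to the phosphatase transcript within a library does not depend on how libraries are scaled. With the median transcript length, the wild-type means of Bckdk and Ppm1k were 92.1 and 66.8 CPM per kilobase, so the size of the ratio depends on the length taken. Per kilobase of the longest transcript, Bckdk exceeded Ppm1k by 3.43, 4.01 and 2.51 times in wild type. In the knockout-labelled libraries it did so by 10.3, 11.2 and 27.4 times. The groups did not overlap. On the log2 scale, with 0.5 added to each count, the ratio was 1.70 ± 0.34 in wild type and 3.88 ± 0.78 in the knockout-labelled libraries (SD, n = 3 each), a difference of 2.17 (exact two-sided permutation test, p = 0.1, the lowest value possible with 3 libraries a group; p = 0.25 adjusted over the 10 pairs tested). Without each library in turn, the difference lay between 1.72 and 2.43. Taking the fold changes with the offsets, the difference between the 2 genes was 1.21. With offsets on the median transcript, the fold changes were 0.37 for Bckdk and -1.34 for Ppm1k. The transcripts differ in length, 5560 bases for the longest of Ppm1k and 3405 for that of Bckdk, so the length trend enters this ratio.

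Bckdha to Dbt was the other ratio at this step whose groups did not overlap. Per kilobase of the longest transcript, it was 3.97, 6.70 and 2.95 in wild type and 20.1, 11.4 and 13.8 in the knockout-labelled libraries. The log2 difference was 1.78 (exact two-sided permutation p = 0.1, adjusted p = 0.25 over the 10 pairs). That difference became 0.93 from the fold changes with offsets. With offsets on the median transcript, the fold changes were 0.07 for Bckdha and -1.46 for Dbt. With the median transcript length, the wild-type means of Bckdha and Dbt were 187 and 188 CPM per kilobase. By contrast Bckdha to Bckdhb, both of E1, was 2.32, 1.97 and 1.45 against 2.41, 1.62 and 1.46, with overlapping groups and a log2 difference of -0.07 (exact two-sided permutation p = 1).

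**Figure D3:**
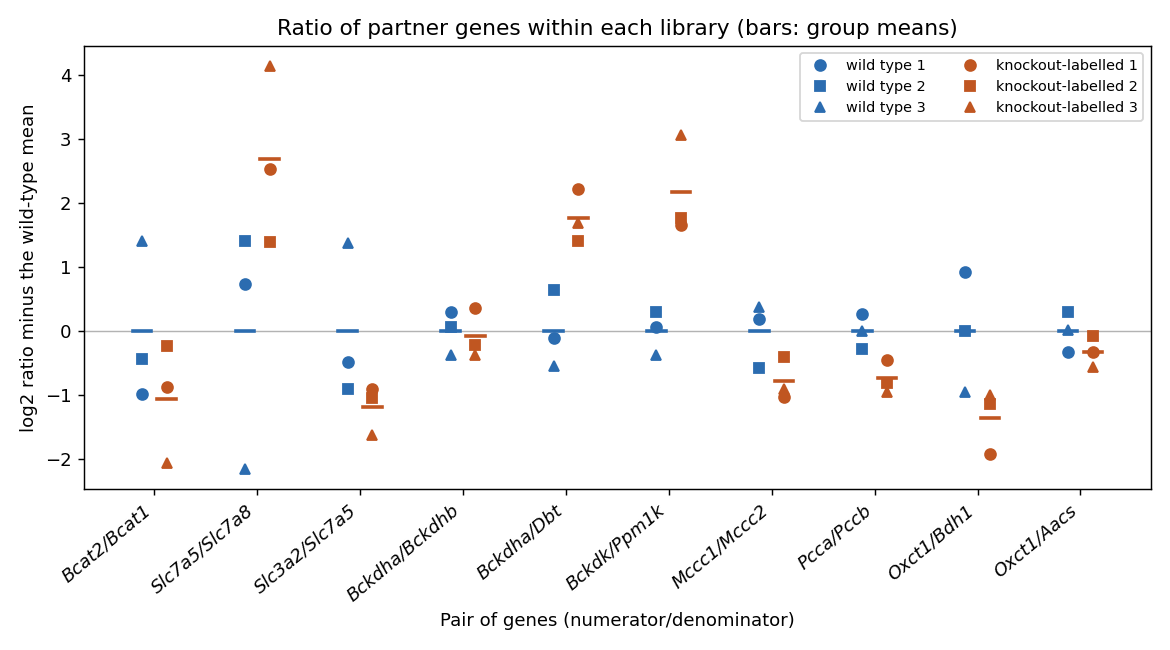
Log2 ratio of 10 pairs of partner genes within each library (vertical axis), after subtracting the wild-type mean of each pair, with blue symbols for wild type, orange for knockout-labelled libraries and bars for group means. The orange symbols of Bckdk/Ppm1k and Bckdha/Dbt lie above all blue ones, those of Pcca/Pccb and Oxct1/Bdh1 lie below all blue ones, and the Oxct1/Bdh1 ratio rests on 1 to 6 counts of Bdh1.

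Of the 3 genes that fell, Ppm1k and Acadsb matched a RefSeq promoter window and Dbt did not. The 250 bases before the RefSeq start (build GRCm38.p6) are given for both, and for Bckdk, which did not pass, as the partner of Ppm1k in the switch. Ppm1k lies on the minus strand at chr6:57535488-57535737, and Acadsb and Bckdk on the plus strand at chr7:131410351-131410600 and chr7:127903823-127904072. Capitals mark matches, on either strand, to the CCAAT box (CCAAT) or the GC box (GGGCGG); 2 of the 3 GC boxes of Acadsb overlap in a single run of capitals.
Ppm1k: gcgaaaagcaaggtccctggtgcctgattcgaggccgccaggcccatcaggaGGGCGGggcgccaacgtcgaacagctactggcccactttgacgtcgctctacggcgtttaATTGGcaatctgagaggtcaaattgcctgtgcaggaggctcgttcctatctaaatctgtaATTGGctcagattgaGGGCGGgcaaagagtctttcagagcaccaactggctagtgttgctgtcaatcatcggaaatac
Acadsb: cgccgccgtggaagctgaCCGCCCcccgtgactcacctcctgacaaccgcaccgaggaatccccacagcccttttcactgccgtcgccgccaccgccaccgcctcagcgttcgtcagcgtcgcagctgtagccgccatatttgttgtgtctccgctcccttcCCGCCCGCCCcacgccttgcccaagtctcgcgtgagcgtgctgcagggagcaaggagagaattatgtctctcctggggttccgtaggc
Bckdk: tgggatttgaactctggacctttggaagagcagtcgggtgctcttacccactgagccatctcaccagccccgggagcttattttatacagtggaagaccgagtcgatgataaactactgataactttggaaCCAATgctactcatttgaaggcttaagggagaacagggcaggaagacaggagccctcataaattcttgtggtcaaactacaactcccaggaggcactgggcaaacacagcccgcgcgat
The Ppm1k window held 4 matches (2 of each box), that of Acadsb 3 GC boxes, and that of Bckdk 1 CCAAT box. In the full windows of 300 bases, which go on for 50 bases after the start, a CCAAT box was present for 14 of the 26 members with a window (53.8%) and for 41.1% of all 27025 genes. A GC box was present for 16 members (61.5%), against 38.2% of all genes. The median GC content of the 250 bases was 55.6% over 33 member windows and 52.4% over all 32851 windows. The median number of CpG sites was 12 and 6. All genes with a window were taken here, with no filter on counts, whereas 29 of the 30 members passed that filter. An E-box (CACGTG) was found for Mccc2 alone among the 26 members, against 8.09% of all genes. The ERR element (TCAAGGTCA), the cAMP response element (TGACGTCA) and the ATF4 composite element (TGATGNAA) had no match in a member window, against 0.466%, 2.03% and 4.51% of all genes. These matches describe letters only.

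Leucine breakdown showed no gene past the threshold. Ivd, the isovaleryl-CoA dehydrogenase, averaged 167 ± 17.8 CPM in wild type, against 156 ± 36.1 CPM in the knockout-labelled libraries (log2 fold change -0.10, edgeR adjusted p = 0.797). Auh, the hydratase that follows the carboxylase, averaged 129 ± 36.1 and 159 ± 16.2 CPM (0.30, edgeR adjusted p = 0.412). Both subunits of methylcrotonyl-CoA carboxylase were measured. Mccc1, which carries the biotin, had 85.6, 69.4 and 112 CPM against 46.3, 72.0 and 42.0 CPM, a log2 fold change of -0.73 (edgeR adjusted p = 0.103, SE 0.28). Mccc2 had 124, 171 and 143 CPM against 156, 157 and 130 CPM, a log2 fold change of 0.02 (edgeR adjusted p = 0.962, SE 0.22). The groups overlapped for both genes, and with the offsets Mccc1 was at -0.011 and Mccc2 at -0.34. Their ratio overlapped as well, because wild-type library 2 (0.128) lay below knockout-labelled library 2 (0.144), and its log2 difference of -0.77 (exact two-sided permutation p = 0.2) turned to 0.33 with the offsets. Mccc1 has a longest transcript of 6751 bases and Mccc2 one of 2123. With offsets on the median transcript, Mccc1 was at -0.56 and Mccc2 at -0.071 (edgeR adjusted p = 0.225 and 0.852). The change of sign thus depends on the length taken.

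In the valine and isoleucine branches, Acadsb fell and the other 5 genes did not pass. Acadsb (ENSMUSG00000030861, chromosome 7) had 256, 238 and 291 CPM in wild type, against 117, 105 and 38.7 CPM in the knockout-labelled libraries. The groups did not overlap, and the log2 fold change of -1.59 (edgeR adjusted p = 0.0235, SE 0.35) was the lowest of all members. In wild type 2 and knockout-labelled 2 it was at 238 and 105 CPM, a direction that any pair across groups that do not overlap has. With the offsets the value was -0.94 (edgeR adjusted p = 0.111), and with those on the median transcript -1.62 (adjusted p = 0.0405). Its counterpart in the valine branch, the isobutyryl-CoA dehydrogenase Acad8, had 42.9, 51.4 and 39.0 CPM against 51.1, 46.0 and 38.0 CPM, a log2 fold change of 0.02 (edgeR adjusted p = 0.962, SE 0.23).

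Further along the valine branch, Hibch, which frees hydroxyisobutyrate from CoA, had 325, 360 and 297 CPM against 306, 211 and 116 CPM (log2 fold change -0.64, SE 0.31, edgeR adjusted p = 0.19). Aldh6a1, the semialdehyde dehydrogenase that makes propionyl-CoA, had 839, 931 and 980 CPM against 676, 702 and 284 CPM. Its groups did not overlap, and its log2 fold change of -0.73 (SE 0.32) did not pass (edgeR adjusted p = 0.145). Knockout-labelled library 3 was the lowest for both genes; without it the log2 fold changes were -0.36 and -0.42. Aldh6a1 shares 18.6% of its exonic bases with Bbof1 on the opposite strand. Hibadh, the dehydrogenase between these steps, had 470, 604 and 421 CPM against 691, 553 and 496 CPM. Its log2 fold change was 0.22 (edgeR adjusted p = 0.546). With the offsets, which take its longest transcript of 6084 bases, it became 1.04 (edgeR adjusted p = 0.0624). With those on the median transcript it was 0.36 (edgeR adjusted p = 0.339). Hsd17b10, which acts on the isoleucine branch, had 142, 266 and 176 CPM against 262, 310 and 364 CPM, with overlapping groups. Its log2 fold change was 0.68 (edgeR adjusted p = 0.119, SE 0.27). With the offsets it was 0.09, and with those on the median transcript 0.47 (edgeR adjusted p = 0.238).

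Propionyl-CoA carboxylase had subunits of similar longest-transcript length, 2592 bases for Pcca and 2320 for Pccb. Their median transcript lengths were 564 and 789 bases. Pcca alone had groups that did not overlap. Pcca, the biotin-carrying alpha subunit, had 135, 123 and 122 CPM in wild type, against 96.0, 89.4 and 60.5 CPM in the knockout-labelled libraries. All wild-type libraries were higher, but its log2 fold change of -0.62 (SE 0.24) did not pass (edgeR adjusted p = 0.107); with the offsets it was -0.74 (edgeR adjusted p = 0.0889). Pccb, the beta subunit, had 409, 542 and 443 CPM against 480, 573 and 425 CPM, with overlapping groups and a log2 fold change of 0.08 (edgeR adjusted p = 0.822, SE 0.23). The per-length ratio of Pcca to Pccb was 0.295, 0.203 and 0.246 in wild type and 0.179, 0.140 and 0.127 in the knockout-labelled libraries. On the log2 scale that is -2.03 ± 0.27 and -2.76 ± 0.25 (SD, n = 3 each), a difference of -0.73 (exact two-sided permutation p = 0.1, the smallest possible; adjusted p = 0.25 over the 10 pairs), and -0.50 from the fold changes with offsets. With offsets on the median transcript, Pcca was at -0.50 and Pccb at -0.29 (edgeR adjusted p = 0.165 and 0.418). Pcca shares 4.63% of its exonic bases with Ggact on the opposite strand.

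**Figure D4:**
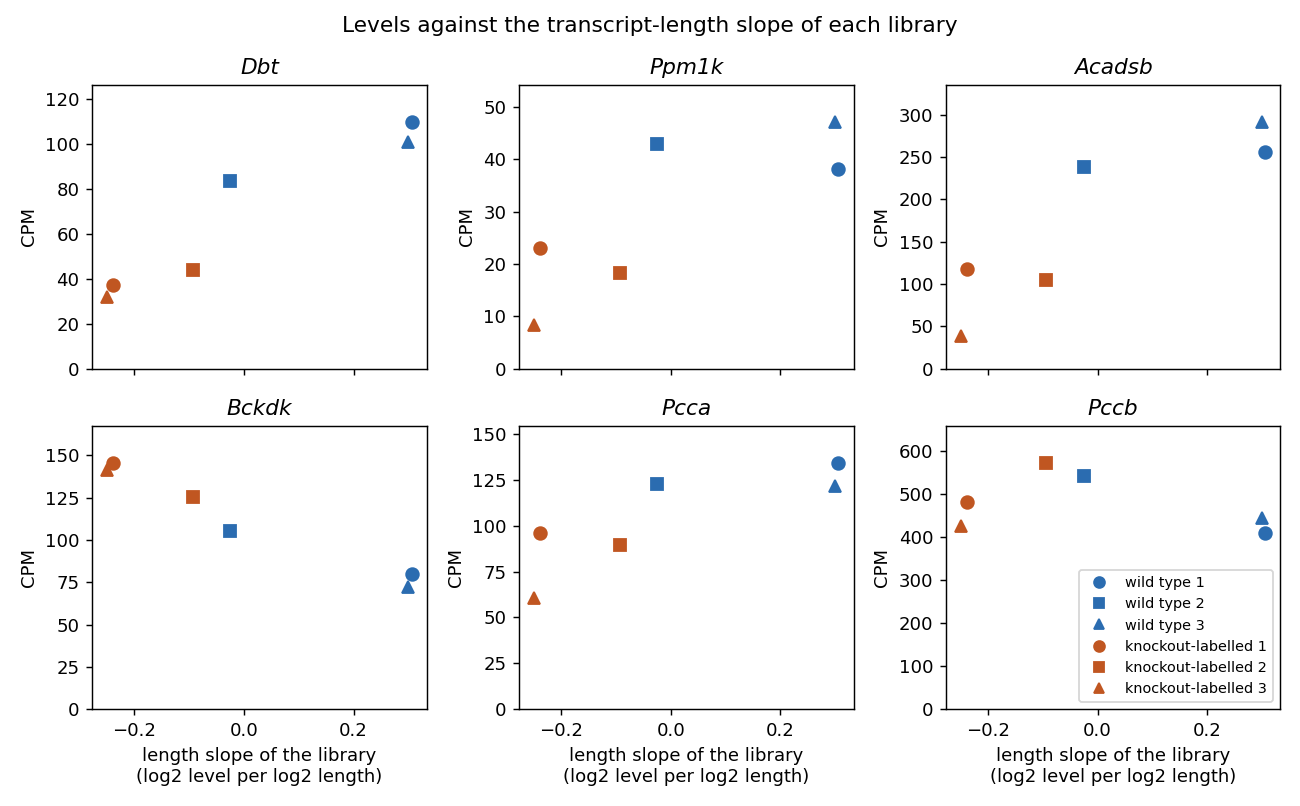
CPM of 6 genes (vertical axes, from 0) against the slope of log2 level on log2 transcript length in each library (horizontal axes), with blue symbols for wild type and orange for the knockout-labelled libraries. The squares, wild type 2 and knockout-labelled 2, lie close together on the horizontal axes at -0.0255 and -0.0932. They lie apart for Dbt (83.5 and 44.1 CPM), Ppm1k (42.9 and 18.3 CPM), Acadsb (238 and 105 CPM) and Pcca (123 and 89.4 CPM). The groups of these genes do not overlap, so any pair across them lies apart in the same direction.

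Of the genes that act on methylmalonyl-CoA and cobalamin, Mcee, the epimerase, had the groups apart, with 77.7, 149 and 101 CPM against 154, 154 and 202 CPM. The log2 fold change was 0.64 (edgeR adjusted p = 0.138, SE 0.27), and 0.04 with the offsets. The longest transcript of Mcee has 828 bases. With offsets on the median transcript Mcee was at 0.58 (edgeR adjusted p = 0.159). Mmaa, a chaperone of the mutase, averaged 31.5 ± 2.74 and 38.2 ± 3.66 CPM, a log2 fold change of 0.28 (edgeR adjusted p = 0.398). With the offsets it was 0.97 (edgeR adjusted p = 0.0666), and with those on the median transcript 0.58 (edgeR adjusted p = 0.168). Mmab, which makes adenosylcobalamin, averaged 22.2 ± 4.87 and 20.6 ± 3.55 CPM, and Mmadhc, which directs cobalamin to its enzymes, 65.4 ± 13.1 and 71.3 ± 22.1 CPM. Neither passed (log2 fold changes -0.10 and 0.13, edgeR adjusted p = 0.806 and 0.767).

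No tested gene of ketone metabolism passed, and the groups overlapped for all 3. Acat1, the mitochondrial thiolase used by both isoleucine and ketone breakdown, had a log2 fold change of -0.30 (edgeR adjusted p = 0.393, SE 0.24), from 626 ± 43.0 to 507 ± 108 CPM. Oxct1, which activates acetoacetate for oxidation, had 330, 352 and 333 CPM against 310, 343 and 263 CPM (-0.15, SE 0.22, edgeR adjusted p = 0.653), and shares 12.6% of its exonic bases with BC037032 on the opposite strand. Aacs, the cytosolic enzyme that spends acetoacetate on lipid synthesis, had 64.7, 44.9 and 51.3 CPM against 60.9, 56.4 and 60.3 CPM (0.14, SE 0.23, edgeR adjusted p = 0.683). Bdh1, the mitochondrial hydroxybutyrate dehydrogenase, held 1, 2 and 3 counts in wild type and 6, 4 and 2 in the knockout-labelled libraries and was not tested, so no fold is given. Per kilobase of the longest transcript, Oxct1 exceeded Aacs by 4.68, 7.20 and 5.96 times in wild type. In the knockout-labelled libraries it did so by 4.67, 5.58 and 4.0 times, with overlapping groups (exact two-sided permutation p = 0.2). With the median transcript length, the wild-type means of Oxct1 and Aacs were 484 and 139 CPM per kilobase.

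Further genes of the pathway, outside the 30, were read from a separate list. Of 47 found in the counts, 42 were tested, 2 fell and none rose (edgeR), with a median log2 fold change of 0.15; at an unadjusted p under 0.05, 5 were higher and 7 lower, and DESeq2 called 2 higher and 3 lower. The shares over all tested genes, given above, were 7.52% lower in edgeR, 12.3% and 18.6% at the unadjusted p, and 4.2% and 11.5% in DESeq2. Mut, the methylmalonyl-CoA mutase that ends the propionate route, had 206, 216 and 194 CPM in wild type, against 128, 107 and 76.0 CPM in the knockout-labelled libraries. It fell, with a log2 fold change of -0.99 (edgeR adjusted p = 0.0329, SE 0.24), and was at -0.63 with the offsets (edgeR adjusted p = 0.0832). With those on the median transcript Mut was at -0.83 and did not pass (edgeR adjusted p = 0.0638). Hlcs, the ligase that attaches biotin to the carboxylases Pcca and Mccc1, had 3.10, 2.18 and 3.77 CPM against 0.531, 1.07 and 1.12 CPM. Its log2 fold change was -1.72 (edgeR adjusted p = 0.0316, SE 0.42), and -1.45 with the offsets (edgeR adjusted p = 0.0666). With those on the median transcript Hlcs was at -1.57 and passed (edgeR adjusted p = 0.0481). The groups did not overlap for either gene. Neither passed without wild-type library 1 or 3 or knockout-labelled library 2 or 3, each left out in turn.

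The libraries did not share these differences equally. Knockout-labelled library 3 was the lowest of the 6 for 12 of the 30 members, and wild-type library 1 for 9. The share over all tested genes was not counted, so these counts are not read as particular to the members. Summed over the members, levels were 4942, 5920 and 5160 CPM in wild type, against 5460, 5167 and 4022 CPM in the knockout-labelled libraries, which overlap. Without knockout-labelled library 3 or without wild-type library 1, 0 of the members passed in edgeR, and 2 and 0 genes passed in the whole table. At an unadjusted p under 0.05 in these fits, 4 and 5 members passed, against 2672 of 12445 and 2251 of 12279 genes. Dbt was then at -1.28 and -1.29 (edgeR adjusted p = 0.0718 and 0.122), Ppm1k at -1.06 and -1.45 (0.0758 and 0.134) and Acadsb at -1.25 and -1.61 (0.0718 and 0.126). Without knockout-labelled library 2, 1 member passed as lower, and 47 genes were called higher and 258 lower of 12444. Without wild-type library 3, the one with muscle markers, 2 members passed as lower, and 31 genes were called higher and 366 lower of 12418. Ppm1k was then at -1.32 (edgeR adjusted p = 0.0634) and Dbt and Acadsb at -1.38 and -1.54 (0.0262 and 0.0432). Without wild-type library 2, 3 members rose beside the 3 that fell: Bckdk (0.85, edgeR adjusted p = 0.034), Hsd17b10 (0.97, 0.0329) and Mcee (0.93, 0.0375). Calls over all genes were also more frequent in that fit, 5.58% higher and 11.2% lower. Without knockout-labelled library 1, Hibch fell as well (-0.998, edgeR adjusted p = 0.0485), with 2.41% of all genes called higher and 8.02% lower. Across the 29 genes, Spearman's rho between log2 fold change and transcript length was -0.364, and it was -0.583 over all tested genes; genes of 1 set of libraries are not independent.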

How the data were processed

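RNA was sequenced from 6 libraries of mature brown fat, 3 labelled wild type and 3 labelled Phospho1 knockout. The authors deposited raw counts per Ensembl gene for each library. The submitters' processing notes name STAR 2.5.4b and the mm9 build. For the counting program, its strand setting and its annotation, the entry is: not given in the sources used here. Of 37620 identifiers, 32897 took a symbol and a transcript length from GENCODE M21 (GRCm38).

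Counts were scaled by TMM, filtered with filterByExpr (minimum count 10, total 15; 12068 genes left) and tested with edgeR 4.0.16's quasi-likelihood test in R 4.3.3, with Benjamini-Hochberg adjustment over all tested genes and a threshold of 0.05. The 6 libraries are the only samples in the fit. Offsets for length and GC content were smooths from mgcv 1.9.3 (basis size 6, prior count 2). DESeq2 1.42.0, limma-voom 3.58.1, other scalings and filters, a replicate block and leaving out each library were alternatives. Ratios within libraries were compared by exact permutation tests. The code of the fit was checked on simulated counts of a fixed dispersion with planted changes. That check does not bear on the calls in these libraries.

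All 30 members are named, with every library for those past the threshold, with groups apart or in a pair; of the wider list, every gene past the threshold is named. The members and lists were chosen with earlier results of these data known. Markers of 8 cell types were summed. Promoter letters are RefSeq's (GRCm38.p6), with 26 of 30 members matched.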

Additional observations from a re-analysis of the deposited data

How the results depend on the processing

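Over all tested genes, 197 were called higher and 908 lower. DESeq2 called 493 higher, total-count scaling 29 higher and 1389 lower, and an adjusted p of 0.01 left 1 higher and 0 lower. Offsets for the longest transcript and GC left 1 higher and 0 lower, and those for the median transcript 96 and 345; leaving out each library in turn gave 0 to 688 higher and 0 to 1383 lower. Of the members, 1 was higher with DESeq2 (Bckdk); 0 were lower at an adjusted p of 0.01, with offsets on the longest transcript and with the block plus offsets; without each library, 0 to 3 were higher and 0 to 4 lower. Of the wider list, DESeq2 called 2 higher; 0 were lower in those same 3 settings and 1 with median-transcript offsets; without each library, 0 to 5 were higher and 0 to 3 lower. The cause was not tested. Fits that leave out a library also have fewer samples, and the part of this was not tested either. Replicate numbers did not pair the libraries (correlations of same-numbered deviations 0.145, -0.534 and 0.0318). A replicate block gave 223 higher and 976 lower genes, with 0 members higher and 3 lower; with the offsets added it gave 4 and 4.

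Small fold changes changed sign. Without the filter, Mccc2 was at -0.030 and Acad8 at -0.037. With offsets on the longest transcript, Bcat2 was at -0.34, Bckdha -0.16, Bckdhb -0.032, Mccc2 -0.34, Pccb -0.24, Mmadhc -0.21 and Aacs -0.10. With the replicate block and offsets these were -0.35, -0.17, -0.036, -0.35, -0.26, -0.23 and -0.083. With median-transcript offsets, Slc3a2 was at -0.0087, Bcat2 -0.15, Mccc2 -0.071, Acad8 -0.20, Pccb -0.29 and Aacs -0.51. With total-count scaling, Bcat2 was at -0.15, Mccc2 -0.23, Acad8 -0.24, Hibadh -0.031, Pccb -0.17, Mmadhc -0.11 and Aacs -0.13. Without each library in turn, Acad8 ranged from -0.088 to 0.14, Bcat2 from -0.031 to 0.30, Ivd from -0.21 to 0.073, Mccc2 from -0.091 to 0.15, Mmab from -0.23 to 0.069, Mmadhc from -0.15 to 0.30, Pccb from -0.051 to 0.21 and the Bckdha/Bckdhb ratio from -0.29 to 0.080.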
